A study of Saccharomyces cerevisiae with 12 samples.

Results

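The 2 stresses were set against each other at matched times: at 30, 60, 100, 140 and 180 min the change after methyl methanesulfonate (MMS) was compared with the change after hydrogen peroxide (H2O2), each measured from the 0 min array of its own course. All 12 arrays of the study entered, and all 5716 probe sets that were not array controls were tested. The question was which genes of budding yeast (Saccharomyces cerevisiae) were apart between the agents at every time, and not late only. Those called by the test and apart by 2-fold or more in 1 direction at all 5 times numbered 22 of 5716, and they are described here in most detail.

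Cells grew to mid-log phase in YPD, a rich glucose medium, at 25 °C. They received 0.3 mM H2O2 or 0.1% MMS at 0 min. Each course gave 6 arrays, 1 per time, of cRNA made from total RNA. The labels gave neither the strain and its genotype nor whether the arrays came from separate cultures. The p-values therefore measure only the spread between the 5 time pairs, which may be technical and also holds change with time. The pairs are successive times of 1 course per agent. The tests treat them as independent, which they may not be, so SE and p-values are not those of replicate experiments. All values are log2 probe set signals or differences of them, and levels are not compared between probe sets. A "difference" is the MMS change minus the H2O2 change, and 1 on this scale is 2-fold.

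H2O2 is an oxidant that yeast removes with catalases, peroxiredoxins and the thioredoxin system under the transcription factors Yap1, Skn7 and Msn2/4. MMS methylates DNA bases, chiefly guanine and adenine, and also proteins and RNA. Lesions that block replication activate the Mec1 and Rad53 checkpoint, and damaged proteins raise the demand on the proteasome, whose genes are under Rpn4.

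The gap between the agents widened with time. At 30 min 81 probe sets were 2-fold or more higher after MMS (1.42% of those tested) and 153 were lower (2.68%). At 60 min the counts were 156 (2.73%) and 208 (3.64%). At 100 min 575 (10.1%) were higher and 542 (9.48%) lower, at 140 min 805 (14.1%) and 800 (14%), and at 180 min 983 (17.2%) and 923 (16.1%). These counts rest on single arrays and carry no test. The SD of the difference over all probe sets grew from 0.471 at 30 min to 1.15 at 180 min, while its median stayed between 0.02 and 0.07. Across probe sets, and without subtraction of the 0 min arrays so that no array was shared, the MMS minus H2O2 values at 30 min correlated with those at 60 min (Pearson's r = 0.564), but r was 0.020 with 100 min and -0.111 with 180 min. The values at 140 and 180 min had an r of 0.973. Genes are not independent replicates, and these correlations are a description.

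**Figure D1:**
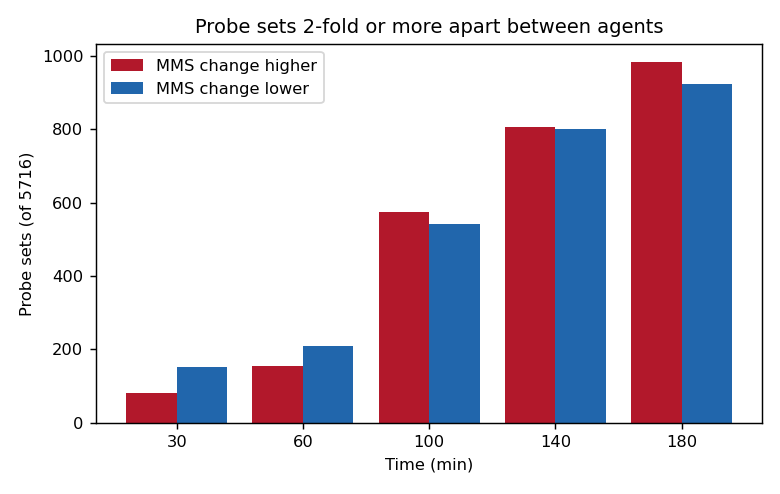
Number of probe sets, of 5716 tested, whose MMS change was 2-fold or more above (red) or below (blue) the H2O2 change at each time in minutes, from 1 array per agent and time. The bars grew from 81 and 153 at 30 min to 983 and 923 at 180 min.

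The test asked whether the mean of the 5 differences departed from 0. At a Benjamini-Hochberg adjusted p under 0.05 it called 1121 probe sets higher after MMS (19.6%) and 684 lower (12%), of which 1660 had 1 sign at all 5 times. With each array centred on its median the split turned to 838 higher and 1004 lower, so the balance of directions over all genes rests on the scaling. The 22 probe sets 2-fold or more apart at every time were 6 higher after MMS (0.105% of those tested) and 16 lower (0.28%). The exact two-sided sign-flip test cannot go below 0.0625 with 5 pairs. Any gene with 1 sign at all times has that value, ACT1 with a mean of 0.06 included, so the test adds nothing for the 22.

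The calls rest on few time pairs. Left without the 60, 100, 140 or 180 min pair, 13, 21, 21 and 4 of the 22 lost the call, and without the 100 or the 140 min pair DDI3 was the only probe set called out of all 5716. The 0 min arrays enter all 5 differences, and when the error of the 0 min pair was let into the fit DDI3 (adjusted p = 0.0124) was again the only call. The other 21 then had an adjusted p of 0.690, although 20 of them were at an unadjusted p under 0.05. This limit applies to every gene and list count given here that rests on the mean difference, except DDI3. In the contrast of late minus early differences the 0 min arrays cancel, but its counts also depend on the time pairs, as given below. Many of the 22 also had dim signals. With the dimmest 25% of probe sets left out, only 9 of the 22 remained. HEM3, HMX1, PUT4, YNR064C, BOP2 and YSW1 were not among the 9. Of the repeated-sequence probe sets described below only YBL100W-A was.

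**Figure D2:**
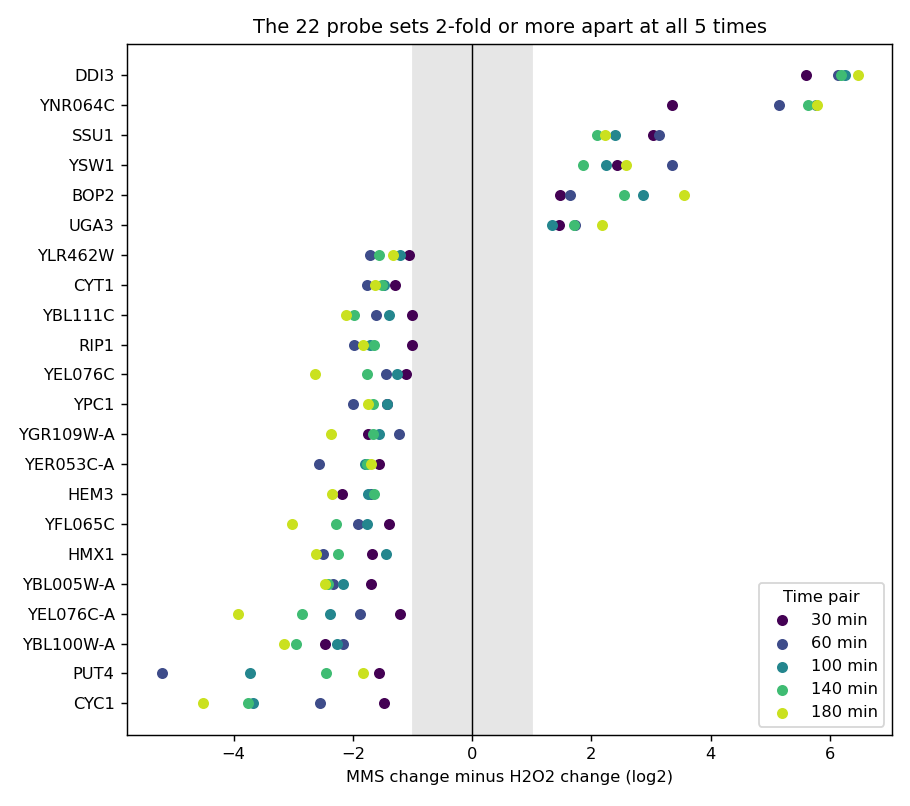
MMS change minus H2O2 change (log2) at each of the 5 times for the 22 probe sets 2-fold or more apart at all of them, 1 point per time pair, with the range between -1 and 1 shaded. DDI3 and YNR064C lie farthest to the right, and RIP1 and YBL111C come nearest to the shaded range.

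Of the 6 genes higher after MMS at every time, the widest apart were a pair of enzyme genes that were far apart by 30 min. DDI3 (YFL061W) encodes a cyanamide hydratase, and its probe set is shared with the near-identical DDI2, so the pair cannot be told apart. Its change from 0 min was 5.93, 7.20, 7.66, 7.56 and 7.68 after MMS at 30, 60, 100, 140 and 180 min. After H2O2 it was 0.33, 1.06, 1.40, 1.37 and 1.21. No H2O2 array came near an MMS array, and most of the gap was there at 30 min. The mean difference was 6.13 ± 0.14 (SE, n = 5 time pairs, adjusted p = 6.43e-05), or 70.1-fold.

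YNR064C, an epoxide hydrolase gene, had changes of 3.45, 5.62, 6.81, 6.84 and 6.77 after MMS. The H2O2 course gave 0.10, 0.48, 1.04, 1.21 and 0.98. Here the gap opened over the first 100 min and then held, with 30 min the lowest of the 5 differences. The mean difference was 5.14 ± 0.39 (adjusted p = 0.00717), or 35.2-fold.

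SSU1 encodes the plasma membrane sulfite pump. Its MMS change was already 2.85 at 30 min and stayed between 2.85 and 3.01. Its H2O2 change was -0.18 at 30 and 60 min and 0.60, 0.86 and 0.79 later. The MMS course was flat from 30 min on, while the H2O2 values were higher later, so that the differences narrowed from 3.03 and 3.13 to 2.39, 2.09 and 2.22. The mean difference was 2.57 ± 0.19 (adjusted p = 0.00717), and the late mean lay 0.84 ± 0.15 below the early mean (adjusted p = 0.0105).

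The other 3 were YSW1, BOP2 and UGA3. YSW1, a gene of the spore membrane, had differences of 2.42, 3.36, 2.25, 1.85 and 2.58 (mean 2.49 ± 0.22, adjusted p = 0.00838). BOP2, a gene of unknown function, was above its 0 min level after both agents, by 3.81 to 5.88 after MMS and by 2.32 to 3.88 after H2O2. Its differences were 1.48, 1.63, 2.86, 2.55 and 3.55 (mean 2.41 ± 0.33, adjusted p = 0.0135). UGA3, the activator of the genes for use of γ-aminobutyrate (GABA), took opposite signs in the 2 courses: its changes were 0.74, 0.68, 1.09, 1.27 and 1.44 after MMS and -0.72, -1.04, -0.25, -0.43 and -0.73 after H2O2. The mean difference was 1.68 ± 0.14 (adjusted p = 0.00838).

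The genes that UGA3 and SSU1 are linked with did not stand as far apart. These neighbours were chosen after their values were seen. Of the GABA genes UGA1 (transaminase), UGA2 (dehydrogenase) and UGA4 (permease), none was called, with mean differences of 0.05, 0.22 and -0.11. FZF1, whose zinc-finger protein activates SSU1, had differences of 0.04, 0.25, 0.92, 1.53 and 1.68 (mean 0.88 ± 0.28, adjusted p = 0.0570). YHB1, the flavohemoglobin gene that Fzf1 also activates, was called at a mean of 0.36 ± 0.09 (adjusted p = 0.0326).

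**Figure D3:**
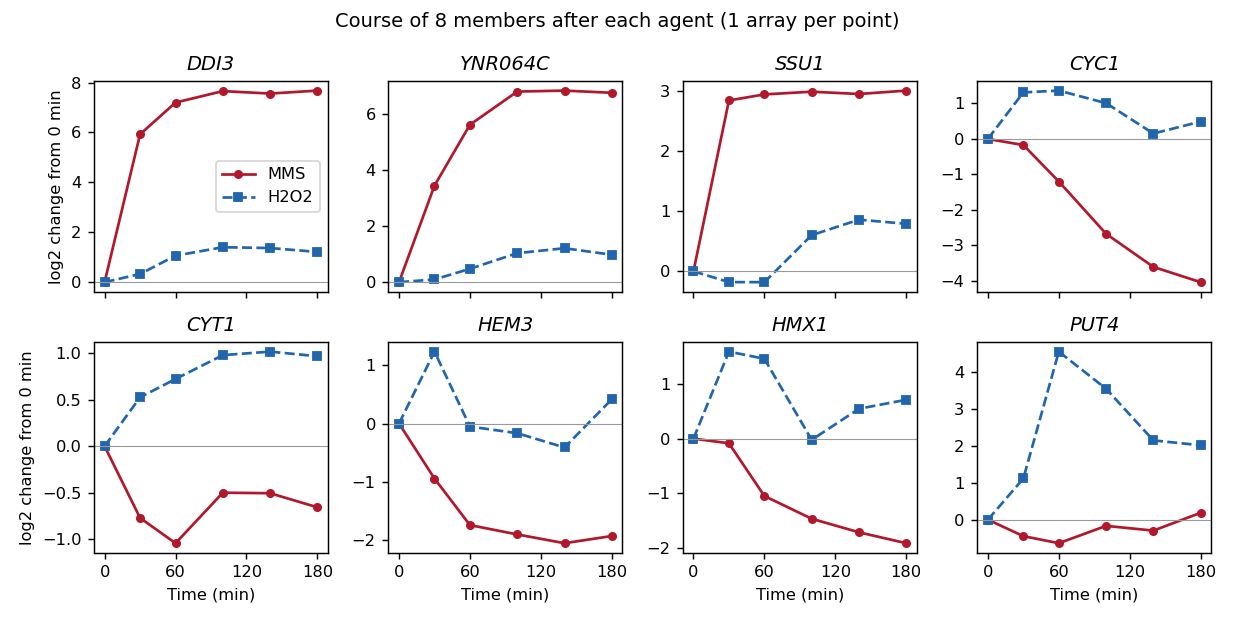
Change from 0 min (log2) against time in minutes for 8 of the 22 genes, after MMS (red circles) and H2O2 (blue squares), 1 array per point. The curves of DDI3, YNR064C and SSU1 part upward after MMS by 30 min, while CYC1, CYT1, HEM3 and HMX1 lie on the low side after MMS and PUT4 on the high side after H2O2.

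The lower side of the 22 held genes of respiration and heme. CYC1 encodes cytochrome c isoform 1, the electron carrier between the bc1 complex and cytochrome c oxidase. It had changes of -0.17, -1.20, -2.67, -3.60 and -4.03 after MMS and of 1.31, 1.36, 1.01, 0.15 and 0.49 after H2O2. The H2O2 course stayed above 0 throughout, and the MMS course was lower at each later time. The mean difference was -3.20 ± 0.44 (adjusted p = 0.0136), and the late mean lay 1.96 ± 0.39 farther down than the early mean (adjusted p = 0.0128).

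CYT1 and RIP1 encode cytochrome c1 and the Rieske iron-sulfur protein, the catalytic subunits of the bc1 complex coded in the nucleus. CYT1 had changes of -0.77, -1.04, -0.50, -0.50 and -0.66 after MMS. After H2O2 it had changes of 0.52, 0.72, 0.98, 1.01 and 0.97. Every MMS value was below 0 and every H2O2 value above it, and unlike CYC1 the gap did not widen (differences -1.29, -1.76, -1.48, -1.52 and -1.62, mean -1.53 ± 0.10, adjusted p = 0.00717).

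RIP1 had differences of -1.0, -1.98, -1.71, -1.65 and -1.83 (mean -1.64 ± 0.16, adjusted p = 0.00978). It sits at the 2-fold edge at 30 min, and without subtraction its smallest difference was 0.958 in size. The array also carries RIP1 control probe sets outside the test. Their differences ran from -1.22 to -2.08 at the 5′ end, from -1.02 to -2.0 in the middle and from -0.80 to -1.83 at the 3′ end. All 3 were below 0 at every time.

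HEM3 and HMX1 act in heme synthesis and breakdown. HEM3 encodes porphobilinogen deaminase, an early enzyme of the synthesis. It had changes of -0.95, -1.75, -1.91, -2.06 and -1.94 after MMS and of 1.24, -0.05, -0.17, -0.41 and 0.42 after H2O2 (mean difference -1.92 ± 0.14, adjusted p = 0.00717). HMX1, the heme oxygenase that breaks heme down, had changes of -0.09, -1.05, -1.46, -1.71 and -1.91 after MMS and of 1.59, 1.46, -0.02, 0.55 and 0.71 after H2O2 (mean difference -2.10 ± 0.20, adjusted p = 0.00989). In both genes the H2O2 value was highest at 30 min, and MMS values were below 0 at all times.

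Heme metabolism as a whole did not go in 1 direction. Of its 9 genes measured, a group drawn up after values were seen, 4 were called lower and 3 higher. Over all probe sets 12% were called lower and 19.6% higher. The 4 include HEM3 and HMX1, which the 2-fold rule had chosen. HEM13, coproporphyrinogen oxidase, was lower with differences of -0.82, -0.99, -0.95, -1.39 and -1.30. HEM1, for the entry enzyme of the pathway, was lower with a mean of -0.90 ± 0.22 (adjusted p = 0.0343) but had a difference of 0.00 at 30 min. HEM4, HEM12 and HEM14, which act between porphobilinogen deaminase and ferrochelatase, were higher by 0.34, 0.43 and 0.62.

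The wider list of respiratory chain and TCA cycle genes was lower after MMS than after H2O2. Of 51 measured, 25 were called lower and 0 higher, against 12% and 19.6% of all probe sets. The list's median change from 0 min was -0.16, -0.25, -0.11, 0.00 and 0.06 after MMS. After H2O2 it was 0.01, 0.21, 0.43, 0.49 and 0.44. The list's median mean difference was -0.40, beside 0.05 for all probe sets. Its median differences were -0.29, -0.64, -0.48, -0.46 and -0.35 from 30 to 180 min, so the median was already apart early and did not move on. Single genes did move: 9 were called moving down late and 4 up. COX7 went from -0.17 at 30 min to -2.01 at 180 min, and MDH1 from -0.30 to 0.87. With arrays centred, quantile normalization or no subtraction, 32, 23 and 29 were called lower.

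Within the chain the electron carriers past ubiquinone held most of the calls. This split was drawn up after values were seen. In the bc1 complex 8 of 9 measured subunits were called lower, with a median of -1.10 (range -1.64 to -0.18), and QCR8 was the exception. Of cytochrome c oxidase 6 of 9 were called lower (median -1.03), with COX5B, the hypoxic form of a subunit, at 0.13 ± 0.12 beside -1.39 ± 0.25 for COX5A, its aerobic form. The called oxidase subunits ranged at 30 min from -0.12 for COX8 to -0.30 for COX5A. The called bc1 subunits other than CYT1 and RIP1, which the rule chose for their gap at 30 min too, ranged there from -0.21 for QCR7 to -0.60 for QCR10. Of the TCA cycle enzymes 2 of 10 were called lower (median -0.19) and of the ATP synthase subunits and inhibitors 4 of 14 (median -0.26).

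The NADH dehydrogenases, also singled out after values were seen, were split. NDI1, the internal enzyme of the inner membrane, was close to the 2-fold mark at each time (differences -1.37, -1.47, -0.97, -1.09 and -1.19). NDE1, an external enzyme, had -0.49, -1.79, -2.03, -2.05 and -2.16 (mean -1.70 ± 0.26, adjusted p = 0.0149). NDE2, the other external enzyme, was not called (0.12 ± 0.25). CYC7, cytochrome c isoform 2, ran against CYC1 in time: its differences were -1.74, -1.75, -0.48, -0.46 and -0.28 (mean -0.94 ± 0.28, adjusted p = 0.0499).

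Of 6 regulators that respond to heme or act on these genes, chosen in the same way, 2 were called higher and 0 lower. Over all probe sets 19.6% were called higher and 12% lower. The 2 were HAP1 and HAP2 (0.57 ± 0.09 and 0.60 ± 0.15), opposite in sign to CYC1 and CYT1. HAP3, HAP5 and ROX1 were not called, with means of 0.64, -0.21 and 0.60. HAP4, the activating subunit of the Hap complex, had differences of -1.89, -2.0, -0.91, -0.43 and -0.10 and was not called (adjusted p = 0.0514). HAP4 was thus farthest apart early, when CYC1 was least apart. Mitochondrial ribosomal protein genes were called lower in 20 of 67 and higher in 2, beside 12% and 19.6% of all probe sets, with a median of -0.24.

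In the remaining 3 single-gene cases the H2O2 course moved most. PUT4, the proline permease, had changes of 1.12, 4.56, 3.55, 2.15 and 2.02 after H2O2 and of -0.45, -0.64, -0.17, -0.30 and 0.19 after MMS. Its differences peaked at 60 min (-1.56, -5.20, -3.72, -2.45 and -1.83, mean -2.95 ± 0.56, adjusted p = 0.0204). The proline oxidase PUT1 and the dehydrogenase PUT2, looked up after values were seen, were not called, with means of 0.35 and -0.03. PUT3, their activator, was called on the other side from PUT4 (0.32 ± 0.09, adjusted p = 0.0412). PUT1 itself had -1.34 at 60 min and 1.92 at 180 min.

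YPC1, an alkaline ceramidase, had changes of 1.66, 2.47, 2.41, 2.30 and 1.97 after H2O2 and of 0.24, 0.48, 0.99, 0.63 and 0.22 after MMS. Both courses were above 0, and no MMS value reached the lowest H2O2 value. The mean difference was -1.65 ± 0.12 (adjusted p = 0.00717). YDC1, which encodes a related ceramidase and was looked up likewise, was not called (0.08 ± 0.18).

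YER053C-A, a small gene of unknown function, had changes of 2.62, 2.84, 3.11, 3.01 and 2.73 after H2O2 and of 1.06, 0.27, 1.32, 1.24 and 1.02 after MMS (mean difference -1.88 ± 0.16, adjusted p = 0.00838). PUT4, YPC1 and YER053C-A, picked out after values were seen, were the exceptions to a pattern of the other 19. There the MMS change had the sign of the difference at all 5 times. The 19 include the 8 repeated-sequence probe sets described below, whose higher MMS 0 min array lowers the MMS change and the difference alike. The rule also chose members by their differences, so the pattern is a description only.

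The other 8 lower probe sets came from repeated sequences and are less secure. They were 3 of Ty Gag proteins (YBL100W-A, YBL005W-A, YGR109W-A) and 5 at chromosome ends (YEL076C-A, YEL076C, YFL065C, YBL111C, YLR462W), among them Y′ helicase-like genes. All 8 probe sets match several similar genes. In all 8 the 0 min arrays of the courses differed by 0.5 or more, with MMS higher. A gap of that size in either direction was present in 69 of all probe sets (1.21%). It was present in 14 of the 132 tested probe sets of the shared type, to which these 8 belong. None of the other 14 members had such a gap.

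YBL100W-A had 0 min arrays 0.98 apart and differences of -2.47, -2.16, -2.26, -2.95 and -3.16. Without subtraction these were -1.49, -1.19, -1.28, -1.97 and -2.18, still past 2-fold at all times. It was the only one of the 8 to stay so, chosen after values were seen: the smallest size of YBL005W-A without subtraction was 0.98 and that of YGR109W-A 0.73.

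The chromosome-end genes lost more. YEL076C-A, with 0 min arrays 1.47 apart, had differences of -1.20, -1.88, -2.39, -2.86 and -3.93 but 0.27, -0.41, -0.92, -1.39 and -2.46 without subtraction. YLR462W, at 1.05, had -1.06, -1.71, -1.20, -1.56 and -1.32 with subtraction and between -0.66 and -0.01 without it. In both genes the 2-fold gap at 30 min was not there without subtraction, whereas that of YEL076C-A at 140 and 180 min was there in either case.

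Control probe sets for 18S and 25S ribosomal RNA, outside the test, were in part apart too. All 8 started higher in the MMS course, among them the first 18S probe set (8.62 against 6.92) and the 5′ probe set of 25S (5.35 against 3.75). The differences of these 2, chosen after values were seen, were -1.40, -1.18, -2.32, -1.01 and -3.01, and -1.45, -1.18, -2.15, -1.48 and -2.47. The other 6 were not 2-fold apart at every time. Of them 4 were below 0 throughout and 2 were not: the fourth 18S probe set had 0.19, 0.13, -0.68, -0.00 and -0.85, and the fifth had -0.17, 0.20, -0.32, -0.21 and -0.30. Ribosomal RNA is not polyadenylated as mRNA is, and its part in the 8 results was not tested.

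**Figure D4:**
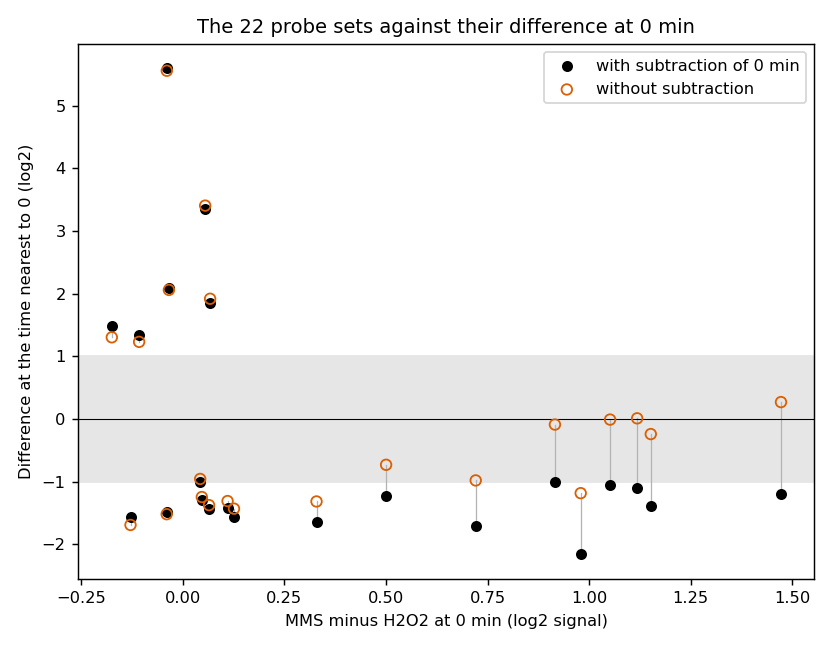
For each of the 22 probe sets, the MMS minus H2O2 signal at 0 min (log2, x axis) against the difference at the time where it was nearest to 0 (log2, y axis), with subtraction of the 0 min arrays (black) and without it (open orange), the range between -1 and 1 shaded. The 8 probe sets from repeated sequences lie at 0.50 or more on the x axis, and 7 of them, with RIP1, enter the shaded range without subtraction.

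**Figure D5:**
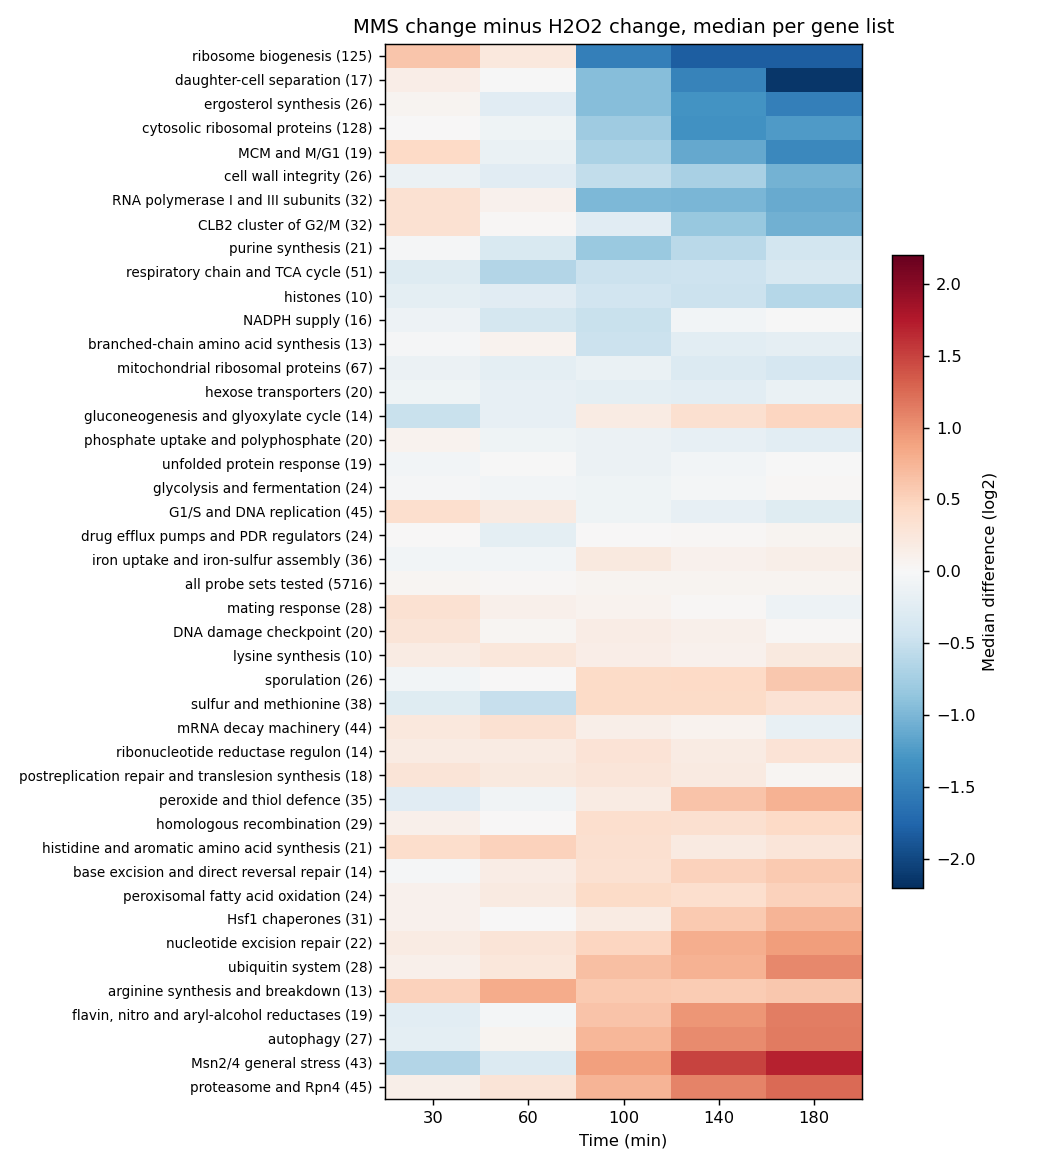
Median difference between the agents (log2, colour) at each time in minutes for 43 gene lists and all probe sets, with the number measured in brackets and lists sorted by the median of their mean differences. The median of the respiratory list keeps 1 sign at all times, whereas those of the ribosome biogenesis and Msn2/4 lists change sign between 60 and 100 min.

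RNA quality probes moved a little in the MMS course. The 3′ minus 5′ signal of ACT1 was -0.02 at 0 min and 0.41 at 180 min in the MMS course and lay between 0.02 and 0.10 after H2O2. ACT1 itself, an actin gene used as a reference, had differences of 0.01, 0.09, 0.08, 0.04 and 0.06 (mean 0.06 ± 0.07, adjusted p = 0.554) in its tested probe set. Its control probe sets, outside the test, were less flat. Their differences ran from -0.15 to -0.41 at the 5′ end and from -0.11 to -0.34 in the middle. At the 3′ end they ran from -0.07 to 0.01. The 3′ minus 5′ signal of RIP1 was 0.29 at 0 min, 0.60 at 30 min and 0.61 at 180 min in the MMS course. It lay between 0.31 and 0.43 after H2O2. The part of RNA quality in the results was not tested.

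Just outside the rule lay 26 probe sets with 1 sign and a smallest difference of 0.85 to 1 in size. PLM2, a transcription factor gene of the damage response, missed it at 60 min only (1.34, 0.97, 1.54, 1.60 and 1.74, mean 1.44 ± 0.13, adjusted p = 0.00933). Just inside were RIP1 at 1.0 and YBL111C at 1.01. The list at the edge thus depends on small amounts, while DDI3, YNR064C and SSU1 do not come near it.

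Beyond the 22, lists of pathway genes differed in whether they stayed on 1 side. Proteasome genes with RPN4 did: of 45 measured, 31 were called higher and 0 lower, beside 19.6% and 12% of all probe sets, 39 were higher at all 5 times, and the medians were 0.12, 0.28, 0.74, 1.09 and 1.24. With arrays centred 14 were called higher and 1 lower, so many of these calls were near the threshold. RPN4, their activator, had changes of 1.16, 1.01, 1.07, 1.34 and 1.35 after MMS and of 0.89, 0.30, -0.40, -0.41 and -0.48 after H2O2. It was above 0 after both agents at 30 and 60 min and afterwards only after MMS (mean difference 1.20 ± 0.26, adjusted p = 0.0266). Among the largest were ADD66, a proteasome assembly factor (1.48 ± 0.27), and RPT3, an ATPase of the base (0.99 ± 0.23). In the ubiquitin system 12 of 28 were called higher and 1 lower, led by DDI1 (2.29 ± 0.59), UFD1 (1.63 ± 0.38) and NPL4 (1.45 ± 0.37), which handle ubiquitinated clients of Cdc48 or the proteasome, with RFU1, an inhibitor of ubiquitin recycling, lower (-1.57 ± 0.42).

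Some amino acid lists were apart early. Of 13 arginine genes 8 were called higher and 1 lower, beside 19.6% and 12% of all probe sets, and the list medians were 0.51, 0.82, 0.58, 0.55 and 0.59, so the gap was present from 30 min and did not widen. ARG4, ARG7 and ARG3 of arginine synthesis were higher by 1.12 ± 0.14, 1.12 ± 0.13 and 1.05 ± 0.14, and CAR2 of arginine breakdown was lower (-1.16 ± 0.20, adjusted p = 0.0177). Of 21 histidine and aromatic amino acid genes 9 were called higher and 1 lower. ARO9, an aromatic aminotransferase, had 1.73, 1.97, 1.37, 1.03 and 0.84 (mean 1.39 ± 0.19, adjusted p = 0.0135), largest at the early times. The other lists of amino acid synthesis held few calls: 1 higher and 2 lower of 13 branched-chain genes, 2 and 0 of 10 lysine genes, and 4 and 3 of 38 sulfur and methionine genes. The medians of the sulfur list were -0.26 and -0.50 at 30 and 60 min and 0.42, 0.42 and 0.32 later.

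DNA repair lists differed in when they were apart. Over all probe sets 19.6% were called higher, 12% lower and 24.9% moving up late. Of 22 nucleotide excision repair genes 10 were called higher and 0 lower (median 0.49), with 12 moving up late. The 10 included RAD4 (1.45 ± 0.36), the damage recognition factor, and RAD28 (1.35 ± 0.26). With arrays centred 5 were called higher. Of 29 homologous recombination genes 7 were higher and 3 lower, a share near that of all probe sets. Of 18 postreplication repair and translesion synthesis genes 8 were higher and 3 lower, and of 20 checkpoint genes 7 were higher and 2 lower. With arrays centred each of these 2 lists held 5 higher and 3 lower. Their medians were highest at 30 min, both 0.28, and 0.05 and 0.02 at 180 min. Of 14 base excision and direct reversal genes 2 were higher and 0 lower, a share below that of all probe sets. RAD54, a recombination translocase, had 0.17, 0.53, 1.47, 2.03 and 2.41 (mean 1.32 ± 0.36, adjusted p = 0.0418). MAG1, the glycosylase that removes methylated bases, had -0.17, 0.19, 1.16, 2.42 and 3.03. Its mean was not called (1.33 ± 0.51, adjusted p = 0.0882), and its late mean lay 2.19 ± 0.52 above the early mean (adjusted p = 0.02).

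Of 14 genes of the ribonucleotide reductase regulon, classic targets of the checkpoint, 6 were called higher and 2 lower, or 57.1% beside 31.6% of all probe sets, with a median of 0.20. PLM2, given above, is among the 6. With arrays centred 3 were called higher and 2 lower, beside 1842 of 5716 probe sets in either direction. With quantile normalization the counts were 4 and 1, beside 1710, and without subtraction 7 and 1, beside 1879. The excess over all probe sets thus depends on the scaling. Differences of the enzyme subunits were small. RNR2 and RNR4, which encode the small subunit, had means of 0.10 ± 0.08 and 0.09 ± 0.09 and were not called. RNR3, a damage-inducible large subunit, was called at 0.30 ± 0.09 (adjusted p = 0.0494). HUG1, a small inhibitor of the enzyme, had 0.45, -0.33, -0.84, -0.85 and -0.49 and was not called (adjusted p = 0.155). DIN7, a mitochondrial nuclease of the same regulon, was higher by 0.91 ± 0.12 (adjusted p = 0.0135). Histone genes were called lower in 4 of 10 and higher in 1, beside 12% and 19.6% of all probe sets, with HTB2 at -0.47, -1.46, -3.27, -3.69 and -3.90.

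Antioxidant and general stress genes were apart in opposite directions early and late. Late minus early differences were called at an adjusted p under 0.05 for 1423 probe sets upward (24.9%) and 1207 downward (21.1%), 46.0% of all tested. With 30 min alone, or 30 to 100 min, as the early times limma called none of them, though 982 and 1717 were at an unadjusted p under 0.05. Of 43 Msn2/4 genes 40 moved up and 0 down, with list medians of -0.64, -0.30, 0.90, 1.49 and 1.69, while only 3 had a mean called higher and 1 lower. CTT1, cytosolic catalase, had -3.14, -2.49, 0.17, 0.92 and 0.73. CTA1, peroxisomal catalase, had -3.86, -2.02, 1.44, 1.47 and 1.23. SRX1, sulfiredoxin, had -1.0, -0.21, 2.96, 4.38 and 5.40. All 3 were lower after MMS at the early times and higher later, with late minus early contrasts of 3.42 ± 0.29 (adjusted p = 0.00309), 4.32 ± 0.50 (adjusted p = 0.00443) and 4.85 ± 0.68 (adjusted p = 0.00666).

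TSA2, an inducible peroxiredoxin, stayed on the H2O2 side at all times but closed in, with -3.22, -1.41, -1.07, -0.83 and -0.44 (mean -1.39 ± 0.40, adjusted p = 0.047). Its 0 min arrays were 0.63 apart, and without subtraction its sign changed at 180 min. TRX2, the thioredoxin that Yap1 controls, had a mean of 0.11 ± 0.13 and was not called. Of 35 peroxide and thiol defence genes, 19 moved up late and 1 down.

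Differences of ribosome genes moved the other way. In all 125 ribosome biogenesis genes measured the difference moved down between the early and late times, with medians of 0.61, 0.23, -1.51, -1.82 and -1.81. In 106 of 128 cytosolic ribosomal protein genes it did so too. The median change of the biogenesis list was -0.51, -1.79, -2.58, -2.55 and -2.23 after MMS. After H2O2 it was -1.12, -2.08, -1.11, -0.78 and -0.43, so both courses were below 0 and that of H2O2 rose after 60 min. Over the mean of 5 times 9 of 125 biogenesis genes (7.2%) and 17 of 128 ribosomal protein genes were called lower, beside 12% of all probe sets. The first share lies below that of all probe sets and the second near it. With arrays centred 12 and 44 were called lower, beside 1004 of all 5716 probe sets.

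Genes apart at late times only (under 0.5 in size at 30 and 60 min, 1 or more at the 3 later times) numbered 271, of which 111 were higher (1.94%) and 160 lower (2.8%). LSO1, a small iron-responsive gene, had -0.05, 0.01, 3.30, 4.74 and 5.45. PIR1, a cell wall protein, had 0.23, -0.31, -2.45, -3.52 and -4.23. Genes apart at early times only numbered 10, of which 2 were higher (0.035%) and 8 lower (0.14%). IPI1, a ribosome assembly factor, had 1.19, 1.17, 0.16, 0.00 and 0.09, and YHK8, a putative transporter, had -2.44, -1.07, 0.10, 0.25 and 0.07. A gap that opened late was thus far more common than one that closed after 60 min, and a gap of 2-fold at every time was the case for the 22 alone.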

How the data were processed

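The authors deposited log2 signals per probe set from one-colour Affymetrix yeast arrays, made with RMA, per the submitters' processing notes. The RMA version, and whether all arrays were normalized together, are not given in the sources used here. Array medians were 9.04 to 9.19, and nothing was rescaled. Of 5900 probe sets 184 controls were left out. This left 5716, of which 5498 had 1 gene in the annotation of the array and 218 had no gene name there, and 12 symbols were updated with the RefSeq gene table. The number of arrays limits the precision.

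Each array at 30 to 180 min had the 0 min array of its course subtracted, and the MMS minus H2O2 difference was taken per time. The 5 differences were tested against 0 with limma 3.58.1 in R 4.3.3 (lmFit and eBayes, two-sided, Benjamini-Hochberg over all 5716 probe sets, threshold 0.05, 4 residual and 1.92 prior degrees of freedom). A second limma contrast set the mean at 100 to 180 min against that at 30 and 60 min. SE are the model's. The fits were checked on simulated data with independent normal errors, whose SD was capped at the median of the measured SDs. The simulation held no dependence between time pairs and no error shared through the 0 min arrays. It thus gives no error rate for these data.

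Pairs were matched by the time in the labels. Same-time arrays did not deviate together from their group means (correlations 0.087, -0.078, 0.253, -0.102 and -0.224 from 30 to 180 min).

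Genes were named by rule: those 2-fold or more apart at all times (up to 12 per direction, plus the rest of the 22), the 5 largest per direction apart late only, early only or crossing, up to 3 called members per direction of each of 43 gene lists, and a fixed set. Groups and genes said to be picked after their values were seen fall outside the rule. The members and lists were chosen with earlier results of these data known. Alternatives were the scaling, the subtraction, a filter on dim probe sets, the moderation, 1 probe set per gene, an unpaired fit, the error at 0 min, other windows and thresholds, and each time pair left out.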

Additional observations from a re-analysis of the deposited data

Results flagged for a closer look

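Of 65 genes checked, 2 had a time pair far from the other 4, and chance gives this for about 1 in 20 groups. The difference of YNR064C at 30 min was 3.35 beside 5.15 to 5.79 later. That of YER053C-A at 60 min was -2.57 beside -1.56 to -1.79 at the other times.

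For 10 genes the early and late differences had opposite signs, were both at least 1 in size, and were apart in the late minus early limma contrast. Upward these were HSP30 (5.33), a membrane heat shock protein, FMP16 (4.52), CTA1 (4.32), RTN2 (4.28) and STR3 (3.96), a cystathionine β-lyase. HSP30 had differences of -1.40, -2.93, 1.62, 3.65 and 4.22. Downward they were AAH1 (-4.20), adenine deaminase, and the ribosome biogenesis genes DHR2 (-3.29), HCA4 (-2.56), ENP2 (-2.47) and SSF1 (-2.32). AAH1 had differences of 0.83, 1.20, -2.24, -3.36 and -3.95. In all, 23 probe sets crossed in this way, 17 with MMS higher late and 6 with MMS lower late.

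Outside the tested probe sets, 4 of 184 controls were 2-fold or more apart at all 5 times. They were 2 RIP1 probe sets, the first 18S ribosomal RNA probe set (mean -1.79) and the 5′ probe set of 25S ribosomal RNA (mean -1.75).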

How the results depend on the processing

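The counts of calls on the mean difference, 1121 higher and 684 lower, depend on the time pairs: without the 30 min pair they were 1657 and 1326, and with another pair left out they ranged from 1 to 38 higher and from 0 to 25 lower (1778 to 2664 at an unadjusted p under 0.05, either direction). With the error of the 0 min pair limma called 1 higher and 0 lower (358 at an unadjusted p under 0.05), and an unmoderated test called 514 and 287. Without the pairing by time (no replicate block) 1383 were called higher and 996 lower, and all 22 probe sets apart at every time kept the call. Late minus early calls, 1423 up and 1207 down, were 242, 429 and 846 up and 381, 490 and 780 down without the 30, 140 and 180 min pair, stayed at 1191 or more up and 1084 or more down without the 60 or 100 min pair, and were 0 and 0 with 30 min alone as early (982 at an unadjusted p under 0.05) or with 30 to 100 min as early (1717). The 6 higher and 16 lower probe sets apart at every time became 11 and 17 after quantile normalization, 10 and 10 without subtraction, 3 and 6 with the dimmest 25% of probe sets left out, 137 and 82 at a threshold of 0.5, and 4 and 5 at a threshold of 1.5. With 1 pair left out they ranged from 1 to 81 and from 0 to 100. In alternatives chosen after seeing the data, leaving out probe sets with 0 min arrays 0.5 or more apart, asking for 2-fold with and without subtraction, or leaving out shared-type probe sets each left 8 lower. Without subtraction the means of FBP1 (-0.0721, adjusted p = 0.589) and PHM6 (0.0696, adjusted p = 0.709) reversed. Where no value above shows the reason, the cause was not tested.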

Other observations

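Over all probe sets 19.6% were called higher and 12% lower. Ergosterol synthesis genes, which make the main membrane sterol of yeast, were called lower after MMS in 11 of 26 and higher in 2, with a median of -0.81. In 20 of 26 the difference moved down between early and late times. ERG5, a sterol desaturase, was lower by a mean of -2.49 ± 0.51. Autophagy genes were called higher in 7 of 27 and lower in 0, with ATG14, a subunit of the autophagy lipid kinase, at 2.16 ± 0.39. Peroxisomal fatty acid oxidation genes were called higher in 7 of 24 and lower in 0, with the import receptor PEX5 at 1.33 ± 0.18. The shares of the last 2 lists lie near that of all probe sets. Of the lists for other cell states, sporulation genes were called higher in 5 of 26 and lower in 0 and mating genes higher in 7 of 28 and lower in 3, with medians of 0.13 and 0.08, the latter turning just below 0 with arrays centred.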
